A study of Homo sapiens with 15 samples.

Results

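The nuclear-encoded respiratory chain genes were taken as the entries whose symbol begins with NDUF, UQCR, ATP5 or COX4 to COX8, or is SDHA, SDHB, SDHC or SDHD. Of 19604 protein-coding genes used, 97 matched. They were put to complexes I to V by textbook role: 75 structural subunits (37 in complex I, 4 in complex II, 8 in complex III, 11 in complex IV and 15 in complex V), 10 assembly factors, 7 tissue or alternative isoforms and 5 readthrough genes or copies. NDUFA4 was counted with complex IV, where its protein is found, and ATP5SL, an older symbol of DMAC2, with the complex I assembly factors. The symbol rule can miss subunit genes with other names, as it does CYC1, the cytochrome c1 gene of complex III. Genes were tested where their level averaged 1 FPKM or more in an experiment, and 87 of the 97 did so in both.

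The respiratory chain sits in the inner mitochondrial membrane. Complex I takes electrons from NADH and complex II from succinate, coenzyme Q carries them to complex III, cytochrome c carries them on to complex IV, and oxygen is reduced there. Complexes I, III and IV pump protons out of the matrix, and complex V, the ATP synthase, lets them back through its ring of c subunits, which turns the gamma subunit inside the catalytic F1 head. Complex II is made wholly from nuclear genes. The others join nuclear subunits with a few encoded by mitochondrial DNA, and dedicated assembly factors, which are not part of the finished enzyme, put the pieces together. Leukaemia cells are known to draw strongly on this pathway.

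RNA was sequenced from OCI-AML5 cells in 5 groups of 3 libraries. OCI-AML5 is an established cell line from an acute myeloid leukaemia, and here it grew with 20% serum and 10 ng/mL GM-CSF. One experiment exposed cells for 4 h to 1000 nM ARV-825, to 1000 nM OTX015 or to no drug (control). The control label says no treatment and names no vehicle. OTX015 blocks the bromodomains of BET proteins, and ARV-825 links OTX015 to a cereblon ligand so that BET proteins are degraded. The other transduced cells for 72 h with an shRNA against RUNX1, a transcription factor of blood cell development, or with a non-targeting shRNA. All groups came from 1 line, no sequence of the shRNA is at hand, and titles of the RUNX1 shRNA libraries name Runx3 while their treatment label names RUNX1. The RUNX1 level was 37.2, 42.9 and 36.0 FPKM with RUNX1 shRNA, against 69.8, 72.2 and 69.8 FPKM with non-targeting shRNA (log2 change -0.85 ± 0.059 SE, adjusted p = 3.71e-05), while RUNX3 changed by 0.07 ± 0.051 (adjusted p = 0.341).

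Levels were read as FPKM, which counts fragments relative to transcript length and to library size; changes are differences of log2(FPKM + 1), tested with limma and called at an adjusted p under 0.05. Depth per library is unknown, and library totals ran from 554570 to 656995 FPKM. Levels are relative to the rest of each library, so a change of total RNA per cell would not show. Over all genes the median level of a library was 1.795 to 1.924 FPKM with ARV-825, against 2.151 to 2.205 FPKM in control. All 7 myeloid markers checked reached 1 FPKM in both experiments, none of the 7 erythroid, 3 B cell, 5 epithelial and fibroblast or 5 striated muscle markers did, and of 3 T cell markers 1 did, in the drug libraries. In such bulk samples fewer cells of a kind and less RNA per cell cannot be told apart.

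In control cells the respiratory chain genes stood high, with a median of 93.9 FPKM over the 87 tested genes, against 12.8 FPKM over all genes tested. In complex V, ATP5E, the epsilon subunit of F1, was lowest at 23.7 FPKM and ATP5J2, a small membrane subunit, highest at 587 FPKM, a 24.7-fold range. Median levels were 68.6 FPKM for complex I, 80.1 FPKM for complex II, 116 FPKM for complex III, 243 FPKM for complex IV and 189 FPKM for complex V. Within complex I, NDUFB6 was lowest at 23.2 FPKM and NDUFB9 highest at 385 FPKM. Within complex IV, NDUFA4 was lowest at 51.1 FPKM and COX4I1, the common form of the regulatory subunit 4, highest at 450.4 FPKM. UQCRFS1, the Rieske iron-sulfur protein, was the lowest of complex III at 26.7 FPKM, and UQCRH, the hinge protein, the highest at 295 FPKM. The range from lowest to highest was 16.6-fold in complex I, 2.55-fold in complex II, 11.1-fold in complex III and 8.82-fold in complex IV. The c subunit is made from 3 genes, and controls expressed all of them, ATP5G1 at 116 ± 1.29, ATP5G2 at 311 ± 14.8 and ATP5G3 at 215 ± 12.6 FPKM (mean ± SD, n = 3).

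Isoforms known from muscle, testis or lung were at or near 0 FPKM. COX4I2 and COX7B2 were listed at 0 in all 15 libraries, and COX6A2 in 14 of them. A listed 0 need not mean a low level, since ARV-825 replicate 1 also lists 6 highly expressed mitochondrial genes at 0. COX7A1 stayed at or below 0.20 FPKM, COX8C at or below 0.29 FPKM, and NDUFA4L2, a hypoxia-linked relative of NDUFA4, between 0.34 and 1.42 FPKM. COX6B2, the testis form of COX6B1, was at 1.94 FPKM in control replicate 1 and at 0.36 FPKM or less in the other 14 libraries. UQCRHL, an intronless copy of UQCRH, was at 1.26, 0.95 and 0.68 FPKM with ARV-825 and at 0.12, 0.19 and 0.16 FPKM with OTX015, against 0.09, 0.11 and 0.01 FPKM in control; it fell below the level needed for testing, and its reads can belong to UQCRH. The same doubt holds for ATP5E and its copy ATP5EP2, for ATP5L and ATP5L2, for SDHA, which has pseudogene copies, and for the readthrough genes NDUFC2-KCTD14 and ATP5J2-PTCD1 with NDUFC2 and ATP5J2.

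Promoter windows of 300 bases, 250 before and 50 after the start site, were found for 75 of the 97 genes in RefSeq (GRCh38.p14). They were searched on both strands for letters bound by known regulators of the pathway. GCGCANGCG, the core of the motif of nuclear respiratory factor 1, was in 23 windows (30.7%), against 7.52% of 35116 RefSeq promoters of the same length. CCGGAAG, the ETS motif that GABP binds, was in 20 (26.7%, against 10.3%), and AAGATGGCG, the YY1 motif, in 8 (10.7%, against 1.75%). The E-box CACGTG was in 8 (10.7%, against 7.26%) and TGTGGT, a RUNX motif, in 12 (16%, against 13.1%). Of the 62 windows of subunit genes, 21 (33.9%) held the nuclear respiratory factor core, and of the 8 windows of assembly factors 1 did. Each match is a description of letters only, and the RefSeq promoters were not matched to these genes in gene type, level or base composition. The windows of 3 genes that the results turn on follow, with every match in capitals. The NDUFAF4 window (chr6:96897842-96898141, minus strand) holds 1 ETS match 147 bases before the start site. The SDHA window (chr5:218070-218369, plus strand) holds 4 matches of the nuclear respiratory factor core, and a TGTGGT run that adjoins the last of them without overlap. The ATP5C1 window (chr10:7787927-7788226, plus strand) holds 1 palindromic stretch in which the core matches on both strands, overlapping itself, 22 bases before the start site, and no TGTGGT.
NDUFAF4: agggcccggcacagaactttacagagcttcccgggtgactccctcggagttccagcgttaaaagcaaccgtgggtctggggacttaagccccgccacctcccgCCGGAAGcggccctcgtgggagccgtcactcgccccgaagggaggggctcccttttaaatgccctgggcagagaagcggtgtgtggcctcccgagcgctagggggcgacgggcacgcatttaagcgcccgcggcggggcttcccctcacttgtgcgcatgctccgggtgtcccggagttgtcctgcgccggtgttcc
SDHA: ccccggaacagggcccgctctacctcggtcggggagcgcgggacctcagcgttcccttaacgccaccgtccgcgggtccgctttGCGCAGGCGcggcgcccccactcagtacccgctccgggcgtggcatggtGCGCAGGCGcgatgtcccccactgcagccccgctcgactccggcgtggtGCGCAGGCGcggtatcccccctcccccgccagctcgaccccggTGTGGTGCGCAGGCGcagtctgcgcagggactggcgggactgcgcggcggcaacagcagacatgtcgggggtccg
ATP5C1: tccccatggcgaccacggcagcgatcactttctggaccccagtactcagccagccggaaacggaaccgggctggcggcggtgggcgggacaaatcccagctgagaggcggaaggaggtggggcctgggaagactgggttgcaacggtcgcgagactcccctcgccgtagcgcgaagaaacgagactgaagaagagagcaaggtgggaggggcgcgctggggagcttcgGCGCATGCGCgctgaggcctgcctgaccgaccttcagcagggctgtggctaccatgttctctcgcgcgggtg

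Summed over the 75 subunit genes, the mean FPKM with ARV-825 was 1.03 times and that with OTX015 0.97 times that in control, and with RUNX1 shRNA it was 0.99 times that with non-targeting shRNA. The sums were 11651, 10781 and 11246 FPKM with ARV-825 and 10745, 10864 and 10204 FPKM with OTX015, against 10838, 10845 and 11035 FPKM in control. Values overlapped between each drug and control. The shRNA libraries had 11184, 11115 and 11223 FPKM with RUNX1 shRNA, against 11313, 11375 and 11265 FPKM with non-targeting shRNA, and these did not overlap. As a share of all FPKM in a library, the subunit genes made up 1.79% to 1.95% with ARV-825 and 1.65% to 1.74% with OTX015, against 1.72% to 1.77% in control, so that ARV-825 lay above control without overlap. They made up 1.88% to 2.00% with RUNX1 shRNA, against 1.73% to 1.92% with non-targeting shRNA, overlapping and in the opposite direction to the sums. Shares also move with the library totals, which include the mitochondrially encoded genes. Totals were 596347 to 610789 FPKM with ARV-825, against 619853 to 631061 FPKM in control. Totals with RUNX1 shRNA were 554570 to 596052 FPKM, against 592057 to 651372 FPKM with non-targeting shRNA. ARV-825 replicate 1, with the share of 1.95%, lists MT-ATP8 at 0, where each control lists 39258.5 FPKM. The part of the totals in these differences was not tested. By complex, the mean with ARV-825 over that in control was 1.04 for complex I, 1.10 for complex II, 1.10 for complex III, 1.04 for complex IV and 0.98 for complex V. With OTX015 the ratios were 0.97, 1.06, 1.03, 1.01 and 0.93 in the same order. Complex II was at 401 to 414 FPKM with ARV-825, above the 363 to 376 FPKM of control, and complex V was at 3217 to 3384 FPKM with OTX015, below the 3529 to 3609 FPKM of control. These sums have no test of their own.

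**Figure D1:**
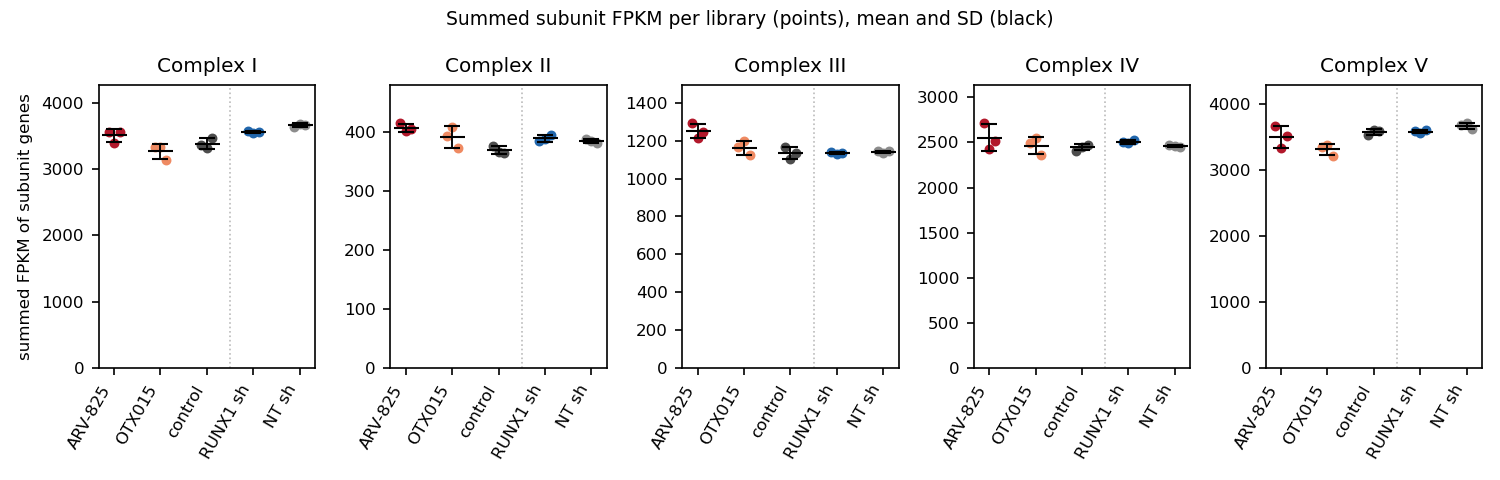
Summed FPKM of the subunit genes of each complex (y axis, from 0) in every library (points), with the mean and SD of each group in black; the dotted line parts the drug table from the shRNA table, which were normalized separately. Complex II was higher in all 3 ARV-825 libraries (401 to 414 FPKM) than in all 3 control libraries (363 to 376 FPKM).

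ARV-825 moved many respiratory chain genes by small amounts. Of the 87 tested, 33 rose and 18 fell, which is 37.9% and 20.7%, where 35.8% of all 10819 genes tested rose and 38.4% fell; in either direction 58.6% were called, where 74.2% of all genes were. Their median absolute log2 change was 0.17, against 0.39 over all genes tested, and 6 of 87 (6.90%) moved by at least 0.5, against 39.0% of all genes. Level moves with this: among other genes that averaged 50 FPKM or more the median absolute change was 0.24, and among the 65 respiratory chain genes at that level 0.14. The median change was 0.07, against -0.01 over all genes. Without ARV-825 replicate 2, or without control replicate 3, 11 genes fell.

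Among the tested genes of the symbol rule, the deepest fall with ARV-825 was in complex I assembly. COA7, an assembly factor of complex IV outside the rule, fell further and is given with the lists below. NDUFAF4, an early assembly factor, was at 13.6, 13.9 and 13.3 FPKM with ARV-825, against 39.5, 34.0 and 35.5 FPKM in control. All ARV-825 libraries lay far below all control libraries, a log2 change of -1.35 ± 0.064 (adjusted p = 1.86e-08), 0.392 times the control level of FPKM + 1. NDUFAF5, which hydroxylates the subunit NDUFS7, had 5.26, 4.66 and 5.63 FPKM with ARV-825, against 8.76, 10.1 and 9.46 FPKM in control (-0.76 ± 0.104, adjusted p = 5.75e-05). NDUFAF6 fell by 0.64 on the log2 scale to 10.1 ± 1.82 FPKM, against 16.1 ± 0.244 FPKM in control. In contrast NDUFAF1, a factor of the membrane arm, rose by 0.34 to 19.2 ± 2.15 FPKM, against 14.9 ± 0.247 FPKM, and COX7A2L, which helps to join complexes III and IV, rose by 0.31. NDUFAF7, a methyltransferase, was lower by 0.21, a call lost without ARV-825 replicate 2 or 3 or control replicate 2 or 3 (adjusted p 0.0537 to 0.0796). NDUFAF2, NDUFAF3, ATP5SL and the ATP synthase factor ATP5S did not pass the test.

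Core and accessory subunits of complex I gave different counts. Of the 7 nuclear core subunits, which carry the electron path, 4 fell and 1 rose (57.1% and 14.3%). Over all genes tested, 38.4% fell and 35.8% rose. NDUFS1 and NDUFS3, both of the peripheral arm, fell by 0.17 and 0.20. NDUFV2 was lower by 0.13, a call lost without any single one of the 6 libraries compared (adjusted p 0.0539 to 0.0954). NDUFV1, which binds NADH, rose by 0.25. Of 30 accessory subunits, which surround the core, 13 rose and 4 fell (43.3% and 13.3%). NDUFA2, a small subunit of the peripheral arm, was at 62.4, 62.8 and 66.1 FPKM with ARV-825, against 40.9, 35.9 and 38.5 FPKM in control (0.72 ± 0.057, adjusted p = 7.52e-07), the largest rise of any subunit. NDUFB11, NDUFB6, NDUFB5, NDUFB3 and NDUFB1, all of the membrane arm, rose by 0.48, 0.44, 0.43, 0.40 and 0.39, and NDUFA1, also of that arm, by 0.41. NDUFA1 was at 91.8, 86.0 and 90.0 FPKM with ARV-825, against 67.1, 66.4 and 67.1 FPKM in control. NDUFC1, another membrane subunit, fell by 0.38 to 34.6 ± 3.79 FPKM, against 45.2 ± 1.61 FPKM, and NDUFV3 fell by 0.28. Of the same NDUFB series, NDUFB7 and NDUFB9 were lower by 0.17 and 0.18. The NDUFB7 call was lost without ARV-825 replicate 2 or control replicate 1 or 3 (adjusted p 0.0511 to 0.0546). That of NDUFB9 was lost without ARV-825 replicate 2 or control replicate 3 (adjusted p 0.0542 to 0.0643). NDUFB4 and NDUFB10 changed by -0.09 and 0.02 and did not pass. Whether core and accessory subunits differ was not tested.

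In complex II, SDHA, the flavoprotein that oxidises succinate, was at 74.5, 74.8 and 74.1 FPKM with ARV-825, against 56.7, 60.8 and 58.3 FPKM in control (0.34 ± 0.045, adjusted p = 4.25e-05). SDHC and SDHD, the membrane anchors, rose by 0.13 and 0.18, and SDHB changed by -0.02 (adjusted p = 0.815). The call of SDHC was lost without ARV-825 replicate 3 or control replicate 2 or 3 (adjusted p 0.0553 to 0.0884), and that of SDHD without control replicate 3 (adjusted p = 0.053). In complex III, 4 of 8 subunits rose (50%, where 35.8% of all genes did) and UQCRFS1 fell (-0.22). UQCR11 rose by 0.40 and UQCRQ by 0.32, both small subunits, and UQCRC2, a core protein of the matrix side, by 0.14. CYC1, outside the symbol rule, fell by 0.32 to 137 ± 2.47 FPKM, against 171 ± 6.18 FPKM.

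In complex IV, 6 of 11 subunits rose (54.5%, where 35.8% of all genes did). Limma called none lower, where 38.4% of all genes were, nor did any fall at an unadjusted p under 0.05. NDUFA4 was at 71.3, 67.9 and 69.9 FPKM with ARV-825, against 45.7, 49.2 and 58.2 FPKM in control, without overlap but with a wide spread in control (0.45 ± 0.083, adjusted p = 0.000537). COX7B, needed for assembly of the enzyme, rose by 0.39, and COX6A1 and COX5B rose by 0.18 and 0.15. COX4I1, the most abundant in control, changed by -0.11 (adjusted p = 0.14). COX6B1 was higher by 0.16, a call lost without ARV-825 replicate 1 or control replicate 1 or 2 (adjusted p 0.0555 to 0.0621).

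In complex V, 3 of 15 subunits rose and 4 fell (20% and 26.7%, where 35.8% and 38.4% of all genes did). ATP5E was at 43.4, 35.6 and 35.8 FPKM with ARV-825, against 21.2, 24.8 and 25.3 FPKM in control (0.66 ± 0.084, adjusted p = 3.09e-05). The peripheral stalk, which holds the head still, moved unequally: ATP5F1, its b subunit, fell by 0.34 to 255 ± 7.98 FPKM, against 323 ± 18.2 FPKM, and ATP5H, its d subunit, rose by 0.33 to 201 ± 5.98 FPKM, against 160 ± 4.48 FPKM. The catalytic subunits ATP5A1 and ATP5B changed by -0.04 (95% interval -0.16 to 0.07) and -0.06 (-0.19 to 0.08). ATP5L of the membrane part rose by 0.22. ATP5J2, the c subunit gene ATP5G2 and ATP5D, the delta subunit of F1, were lower by 0.15, 0.17 and 0.18, while ATP5G1 and ATP5G3 changed by 0.02 and 0.08 and did not pass. The ATP5J2 call was lost without ARV-825 replicate 2 or control replicate 1 or 3 (adjusted p 0.0762 to 0.135). The ATP5G2 call was lost without ARV-825 replicate 2 or 3 or control replicate 2 or 3 (adjusted p 0.0675 to 0.0968), and that of ATP5D without ARV-825 replicate 1 or 2 or control replicate 2 or 3 (adjusted p 0.0542 to 0.143).

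**Figure D2:**
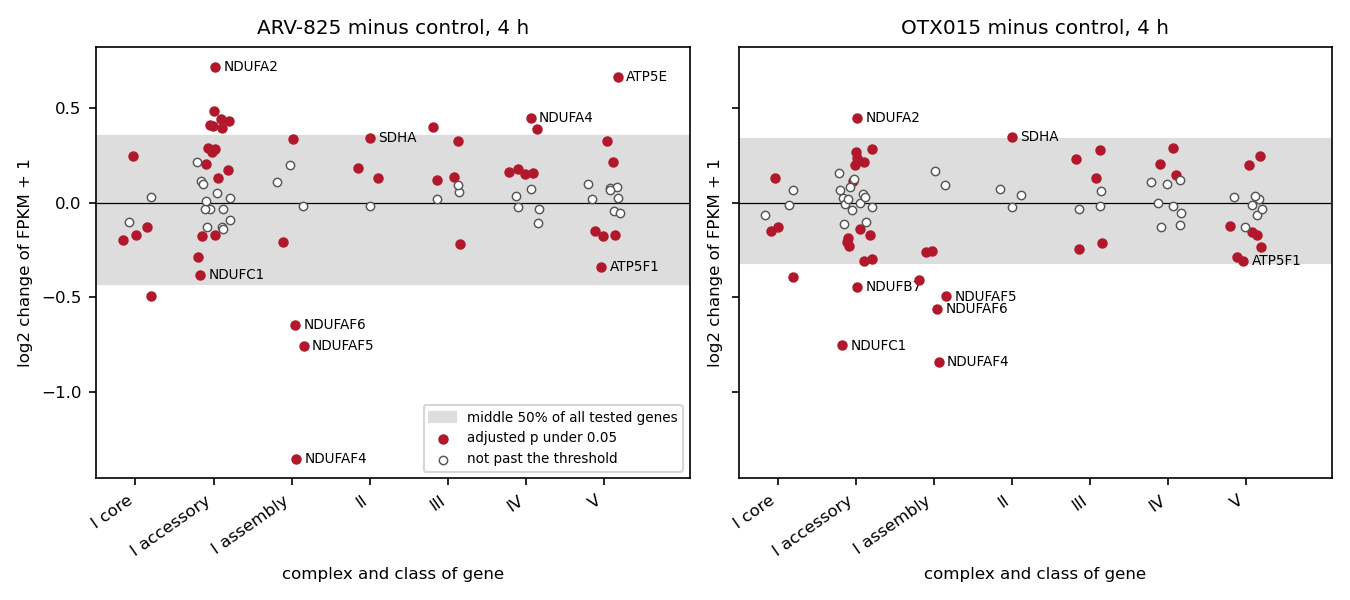
Log2 change of FPKM + 1 (y axis) against control with ARV-825 (left) and OTX015 (right) for each tested subunit or complex I assembly factor, by complex and class; filled points passed an adjusted p under 0.05, open points did not, and the grey band holds the middle 50% of all tested genes (-0.43 to 0.35 with ARV-825, -0.32 to 0.34 with OTX015). Most genes lie within the band, and NDUFAF4 lies lowest in both panels (-1.35 and -0.84).

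With OTX015, fewer respiratory chain genes were called in either direction than among all genes. Of the 87 tested, 18 rose and 27 fell, or 20.7% and 31.0%, where 36.1% and 33.5% of all genes did; in either direction 51.7% were called, where 69.6% of all genes were. The median change was -0.01, against 0.03 over all genes, and the median absolute change was 0.13, against 0.33. Among the 65 at 50 FPKM or more, 24.6% rose and 23.1% fell, where 33.6% and 33.1% of other genes at that level did. Only NDUFAF4, NDUFC1 and NDUFAF6 moved by at least 0.5. Both drugs were set against the same 3 control libraries, so their changes share that source of error.

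Of the 8 assembly factors of complex I, limma called 6 lower and none higher (75% and 0%, where 33.5% and 36.1% of all genes were). None was higher at an unadjusted p under 0.05. NDUFAF4 was at 21.3, 19.3 and 18.9 FPKM with OTX015, against 39.5, 34.0 and 35.5 FPKM in control (-0.84 ± 0.064, adjusted p = 8.56e-07). NDUFAF6, NDUFAF5 and NDUFAF3 fell by 0.56, 0.49 and 0.41, and NDUFAF7 by 0.26. NDUFAF2 was lower by 0.26, a call lost without OTX015 replicate 2 or 3 or control replicate 1 or 3 (adjusted p 0.0533 to 0.0959). NDUFC1 was at 27.0, 26.9 and 25.4 FPKM with OTX015, against 46.7, 43.5 and 45.5 FPKM in control, with tight groups far apart (-0.75 ± 0.069, adjusted p = 3.19e-06). NDUFB7, a membrane arm subunit, fell by 0.45, NDUFA5 of the peripheral arm by 0.31 and NDUFB4 of the membrane arm by 0.30. Among the 30 accessory subunits 7 rose and 9 fell (23.3% and 30%), and among the 7 core subunits 1 rose and 3 fell (14.3% and 42.9%). NDUFA2 rose by 0.45 to 52.8 ± 2.84 FPKM, against 38.4 ± 2.53 FPKM.

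In complex II, SDHA was at 75.3, 78.2 and 70.7 FPKM with OTX015, against 56.7, 60.8 and 58.3 FPKM in control (0.35 ± 0.045, adjusted p = 4.91e-05), and the other 3 genes did not pass. In complex III, UQCRQ rose by 0.28, while UQCR10 fell by 0.24 and UQCRFS1 by 0.21. UQCR11 was higher by 0.23, a call lost without OTX015 replicate 1 or control replicate 2 (adjusted p 0.0617 to 0.0713). In complex IV, 3 of 11 rose (27.3%, where 36.1% of all genes did) and limma called none lower, also none at an unadjusted p under 0.05. NDUFA4 rose by 0.29 and COX6A1 by 0.21. COX7A2 was higher by 0.14, a call lost without OTX015 replicate 1 or 2 or control replicate 2 (adjusted p 0.0529 to 0.0662). In complex V, 2 of 15 rose and 6 fell (13.3% and 40%, where 36.1% and 33.5% of all genes did). Among those that fell were ATP5F1 (-0.31) and ATP5J2 (-0.29). Of the c subunit genes, ATP5G1 fell by 0.24 to 98.4 ± 6.25 FPKM, against 116 ± 1.29 FPKM, and ATP5G3 changed by 0.02 (adjusted p = 0.781). ATP5G2 was lower by 0.17, a call lost without OTX015 replicate 1 or 3 or control replicate 2 or 3 (adjusted p 0.0655 to 0.0977). ATP5E was higher by 0.24, a call lost without OTX015 replicate 3 or control replicate 1 (adjusted p 0.0703 to 0.0951).

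**Figure D3:**
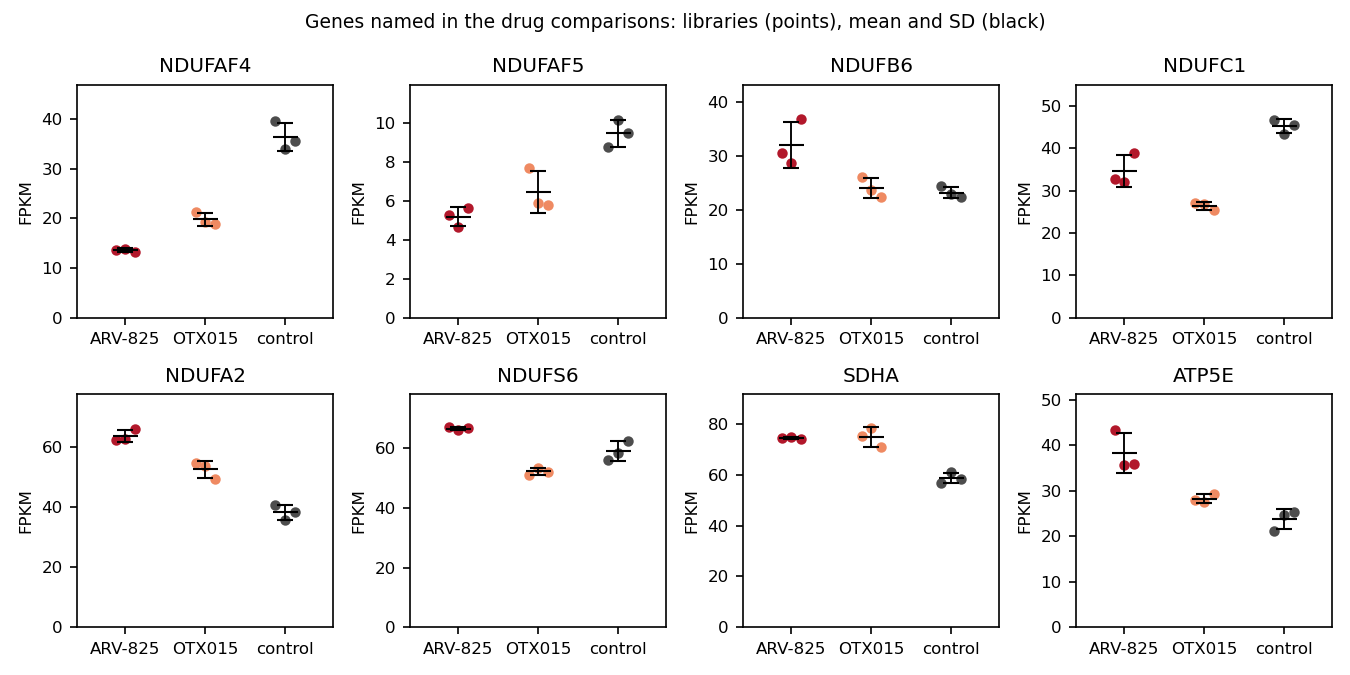
FPKM (y axis, from 0) of 8 genes in each library (points) of the ARV-825, OTX015 and control groups, with the mean and SD in black. NDUFAF4 averaged 13.6 FPKM with ARV-825, 19.8 FPKM with OTX015 and 36.4 FPKM in control, and NDUFS6 is above control with ARV-825 and below it with OTX015.

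ARV-825 and OTX015 were compared at the same dose and time, with 1 contrast tested over all 10819 genes. ARV-825 contains the OTX015 warhead plus a linker and a cereblon ligand. Of the 87 respiratory chain genes, 28 were higher with ARV-825 than with OTX015 and 4 lower, or 32.2% and 4.60%, where 24.7% and 33.4% of all genes were; in either direction 36.8% were called, where 58.1% of all genes were. After median-ratio rescaling of the libraries 45 were higher and 2 lower. Without ARV-825 replicate 2, 2 were lower. The median difference was 0.09, against -0.04 over all genes.

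Accessory subunits of complex I made up 15 of the 28. Of the 30 tested, 50% were higher, where 24.7% of all genes were, and 1, NDUFV3, was lower (-0.35). NDUFB6 was at 30.6, 28.7 and 36.9 FPKM with ARV-825, against 26.1, 23.7 and 22.4 FPKM with OTX015 (0.40 ± 0.087, adjusted p = 0.00286). NDUFC1 differed by 0.37, NDUFS6, a zinc-binding subunit, by 0.34, and NDUFA1 by 0.29. NDUFS6 was the single gene of the 87 called in opposite directions against control. It was at 67.0, 66.0 and 66.6 FPKM with ARV-825 and 51.1, 53.4 and 52.1 FPKM with OTX015, against 56.0, 58.5 and 62.5 FPKM in control, so that all 3 groups stood apart (0.17 ± 0.045 and -0.17 ± 0.045, adjusted p = 0.00487 and 0.00517).

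Among assembly factors, NDUFAF3 was at 25.7, 23.4 and 22.7 FPKM with ARV-825, against 15.6, 18.3 and 15.6 FPKM with OTX015 (0.51 ± 0.074, adjusted p = 0.000188), and NDUFAF2 differed by 0.45. NDUFAF4 was lower with ARV-825 than with OTX015 by 0.51 on the log2 scale (adjusted p = 8.29e-05). NDUFC2-KCTD14, a readthrough transcript, was at 5.87, 2.81 and 4.41 FPKM with ARV-825, against 2.00, 2.28 and 1.57 FPKM with OTX015, and the spread among ARV-825 libraries was wide (0.83 ± 0.197, adjusted p = 0.00429). In complex V, 6 of 15 were higher (40%, where 24.7% of all genes were), ATP5E by 0.42. Complex II showed no call, with SDHA differing by -0.00 (95% interval -0.10 to 0.10), and no gene of it passed an unadjusted p of 0.05. ATP5C1 differed by -0.01 (interval -0.10 to 0.07).

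**Figure D4:**
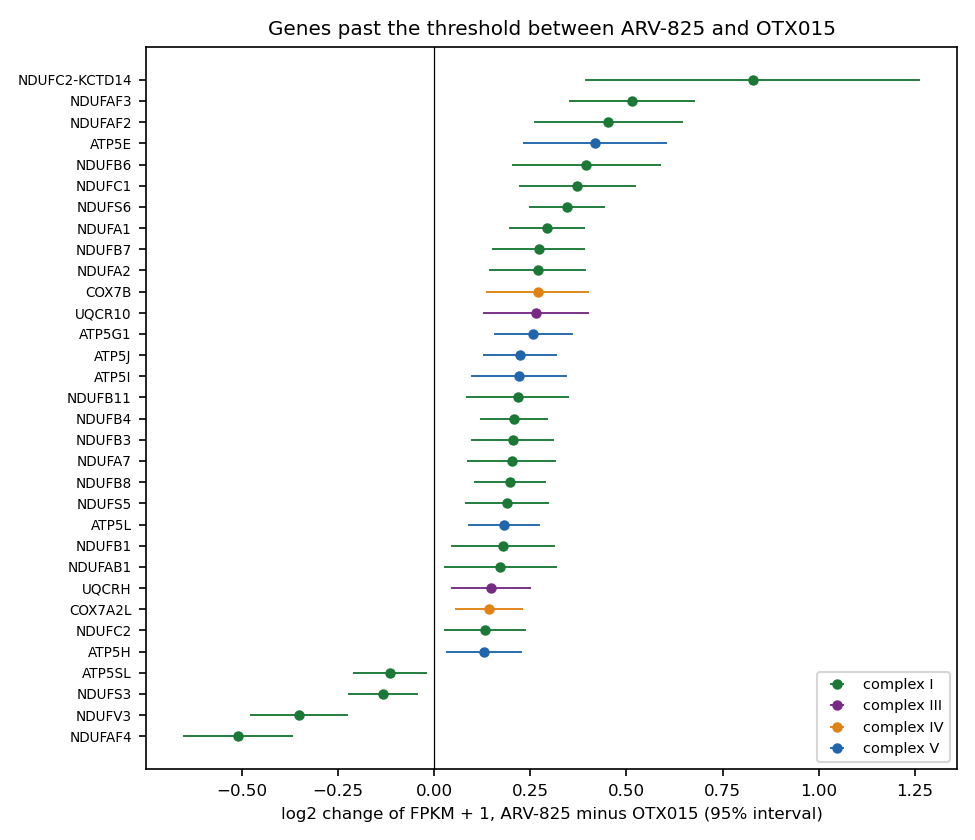
Log2 difference of FPKM + 1 (x axis) between ARV-825 and OTX015, with its 95% interval, for the 32 respiratory chain genes past the threshold, coloured by complex. Points right of 0 were higher with ARV-825 (28 genes) and points left of 0 lower (4 genes).

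RUNX1 shRNA lowered 1 subunit of the ATP synthase far more than any other of the 87 tested genes of the symbol rule. ATP5C1, the gamma subunit that turns inside the F1 head, was at 74.0, 80.2 and 73.0 FPKM with RUNX1 shRNA, against 154.2, 153.7 and 154.2 FPKM with non-targeting shRNA. The groups were far apart and each was tight. Taken as FPKM + 1, the gene stood at 0.495 times its level in non-targeting libraries (log2 change -1.02 ± 0.037, 95% interval -1.10 to -0.93, adjusted p = 1.36e-06). It was the 22nd lowest change of 10925 genes tested, below that of RUNX1 itself, which was the 38th lowest. No alternative setting or left-out library took the change outside -1.06 to -0.98. With the drugs ATP5C1 did not pass: it was at 143 ± 3.35 FPKM with ARV-825 and 145 ± 2.06 FPKM with OTX015, against 142 ± 3.45 FPKM in control. RUNX1 itself was at 36.2 ± 2.39 FPKM after 4 h of ARV-825, against 61.4 ± 2.09 FPKM in control (-0.75, adjusted p = 2.38e-06). The shRNA exposure lasted 72 h, so the experiments differ in time as well as in treatment. Whether the fall of ATP5C1 with the shRNA depends on RUNX1 was not tested.

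The rest of the F1 head did not fall with it. ATP5A1, the alpha subunit, was at 335.5, 333.1 and 337.5 FPKM with RUNX1 shRNA, against 333.1, 331.6 and 330.2 FPKM with non-targeting shRNA (0.02, interval -0.03 to 0.06). Some values recur exactly between libraries, as quantile normalization leaves them. ATP5B, the beta subunit, was higher by 0.08, a call lost without each of 5 libraries, all but RUNX1 shRNA replicate 2 (adjusted p 0.0646 to 0.137). ATP5D and ATP5E, delta and epsilon, changed by -0.06 and -0.11 and did not pass. Within each library, ATP5C1 over ATP5A1 was 0.220, 0.241 and 0.216 with RUNX1 shRNA, against 0.463, 0.464 and 0.467 with non-targeting shRNA. The drug libraries spanned 0.470 to 0.548. In RefSeq (GRCh38.p14) the gene spans chr10:7788177-7807801, between KIN and TAF3, which moved less. KIN, just before it, was at 7.25 ± 0.428 FPKM with RUNX1 shRNA, against 8.58 ± 0.347 FPKM (-0.22, adjusted p = 0.0326), and TAF3, just after it, changed by -0.01 (adjusted p = 0.897).

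**Figure D5:**
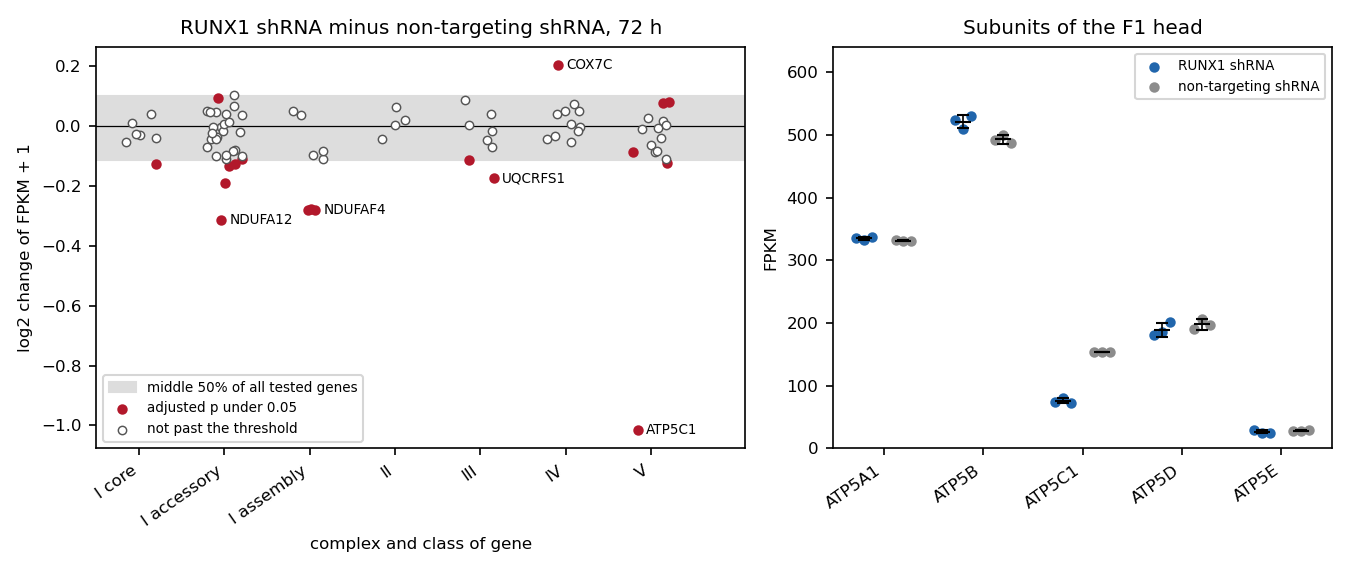
Left, log2 change of FPKM + 1 with RUNX1 shRNA against non-targeting shRNA for each tested subunit or complex I assembly factor (filled, adjusted p under 0.05; grey band, middle 50% of all tested genes, -0.11 to 0.10). Right, FPKM of the 5 F1 subunits in each library, with mean and SD in black: ATP5C1 averaged 75.8 FPKM with RUNX1 shRNA and 154 FPKM with non-targeting shRNA, while each of the other 4 has similar levels in both groups.

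The other respiratory chain genes of the symbol rule changed little with RUNX1 shRNA. CYCS, the cytochrome c gene outside the rule, fell more than any of them and is given with the lists below. Of the 87 tested, 4 rose and 14 fell, or 4.60% and 16.1%, where 13.5% and 13.8% of all genes did; in either direction 20.7% were called, where 27.4% of all genes were. The median absolute change was 0.05, against 0.11 over all genes, and ATP5C1 alone moved by at least 0.5. The 4 that rose numbered 1 without RUNX1 shRNA replicate 1 or 3 or non-targeting replicate 2 or 3, and 2 without non-targeting replicate 1. The 14 that fell numbered 9 without non-targeting replicate 2.

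NDUFA12, which sits in the peripheral arm of complex I, was at 83.1, 79.1 and 78.5 FPKM with RUNX1 shRNA, against 100.5, 97.9 and 101.2 FPKM with non-targeting shRNA (-0.31 ± 0.031, adjusted p = 0.000241). The assembly factors NDUFAF1, NDUFAF2 and NDUFAF4 each fell by 0.28. NDUFAF4 was at 33.4, 29.0 and 31.9 FPKM with RUNX1 shRNA, against 37.0, 37.0 and 41.3 FPKM. NDUFS5 fell by 0.13 and ATP5G1 by 0.12. COX7C, a small subunit of complex IV, was the clearest rise, at 256.9, 251.0 and 259.1 FPKM with RUNX1 shRNA, against 220.3, 225.3 and 220.3 FPKM (0.20 ± 0.024, adjusted p = 0.000611). Complex II showed no call, also none at an unadjusted p under 0.05. UQCRFS1 was lower by 0.17, a call lost without non-targeting replicate 1 or 2 or RUNX1 shRNA replicate 1 (adjusted p 0.052 to 0.071). NDUFB11 (-0.19), NDUFS4 (-0.13), UQCR10 (-0.11), ATP5J (-0.09), NDUFA7 (0.09) and ATP5G2 (0.08) also passed, and each lost its call without any of 4 or 5 of the 6 libraries (adjusted p 0.0571 to 0.147). NDUFB10 (-0.11) lost its call without non-targeting replicate 2 or 3 or RUNX1 shRNA replicate 2 (adjusted p 0.0547 to 0.0838).

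Other genes of the pathway were counted from lists, read beside the shares of all genes tested: 35.8% higher and 38.4% lower with ARV-825, 36.1% and 33.5% with OTX015, 24.7% and 33.4% for ARV-825 over OTX015, and 13.5% and 13.8% with RUNX1 shRNA. Of 16 tested regulators of respiratory chain transcription, 10 fell and 2 rose with ARV-825, 10 fell and 3 rose with OTX015, and 3 fell and 1 rose with RUNX1 shRNA. With ARV-825 over OTX015, 11 were lower and 1 higher. The share that fell was thus 62.5% with ARV-825 and 62.5% with OTX015, above that of all genes. The PGC-1 family co-activators PPRC1 and PPARGC1B, the mitochondrial transcription factor TFB2M and the mitochondrial RNA polymerase POLRMT changed with ARV-825 by -1.79, -1.55, -1.71 and -1.48, and with OTX015 by -1.17, -0.93, -1.37 and -1.10. PPRC1 averaged 3.74 ± 0.338 FPKM with ARV-825 and 6.32 ± 0.385 FPKM with OTX015, against 15.4 ± 0.786 FPKM in control (SD, n = 3 each). NRF1, nuclear respiratory factor 1, rose by 0.75 and 0.74. MYC, a broad activator of growth genes, fell by 3.59 and 1.34. YY1 changed by -0.01 and 0.03 without passing, and PPARGC1A was near 0 FPKM throughout.

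Assembly factors outside the symbol rule gave 17 higher and 18 lower of 49 with ARV-825, 7 and 21 with OTX015, 23 and 6 for ARV-825 over OTX015, and 1 and 8 with RUNX1 shRNA. The shares with ARV-825, 34.7% higher and 36.7% lower, were near those of all genes (35.8% and 38.4%). With OTX015, 14.3% were higher and 42.9% lower, where 36.1% and 33.5% of all genes were. COA7 and COA6, both of complex IV, had the largest falls with ARV-825, to 3.24 ± 0.205 and 22.1 ± 0.441 FPKM, against 15.3 ± 1.35 and 58.1 ± 4.36 FPKM in control (-1.94 and -1.35). PET117 and TACO1 fell by 1.08 and 1.07. Of the 15 genes for cytochrome c and coenzyme Q, 5 rose and 5 fell with ARV-825, 4 and 7 with OTX015, 9 and 2 for ARV-825 over OTX015, and 0 and 3 with RUNX1 shRNA, where 1 was higher at an unadjusted p under 0.05. With ARV-825 that is 33.3% in each direction, near the shares of all genes. CYCS, cytochrome c itself, was at 108, 103 and 114 FPKM with RUNX1 shRNA, against 179, 177 and 174 FPKM with non-targeting shRNA (-0.70 ± 0.038, adjusted p = 1.08e-05), while it rose by 0.45 with ARV-825 and 0.19 with OTX015.

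Of 19 tricarboxylic acid cycle genes, 13 rose and 2 fell with ARV-825, 8 and 1 with OTX015, 4 and 2 for ARV-825 over OTX015, and 1 and 4 with RUNX1 shRNA. With ARV-825 68.4% rose and 10.5% fell, where 35.8% and 38.4% of all genes did, and with OTX015 42.1% rose and 5.26% fell, where 36.1% and 33.5% did. OGDH, which oxidises 2-oxoglutarate, rose to 63.5 ± 2.44 FPKM with ARV-825 and 60.7 ± 0.40 FPKM with OTX015, against 26.6 ± 0.834 FPKM in control. Among 8 carriers, channels and the ATP synthase inhibitor, 3 rose and 2 fell with ARV-825, 4 and 2 with OTX015, 0 and 2 for ARV-825 over OTX015 (1 higher at an unadjusted p under 0.05), and 3 and 0 with RUNX1 shRNA (1 lower unadjusted). With ARV-825 37.5% of them rose and 25% fell, beside 35.8% and 38.4% of all genes. SLC25A4, an ADP/ATP carrier, rose by 0.84 and 0.67 with the drugs. For the 13 mitochondrially encoded respiratory chain genes, limma called none in any drug comparison, also none at an unadjusted p under 0.05. However, ARV-825 replicate 1 lists 6 of them at 0, though each is highly expressed in the other 8 drug libraries. The drug groups shared 1 fit, so these zeros also widened the SE of OTX015 against control (MT-ND4 2.70, MT-ATP8 3.14). The lack of a call for these 6 genes is therefore uninformative in every drug comparison. With RUNX1 shRNA 6 of 13 fell (46.2%, where 13.8% of all genes did), MT-ATP6 by 0.33 and MT-ND2 by 0.28; at an unadjusted p under 0.05, 10 were lower and none higher. MT-CO2 and MT-ATP8 had lower point values than ATP5C1, -1.32 and -1.12, without passing (adjusted p = 0.0552 and 0.106). MT-CO2 was at 9915, 7603 and 10764 FPKM with RUNX1 shRNA, against 35700, 9915 and 35700 FPKM with non-targeting shRNA, so the groups touch. Values of these genes are few and recur between libraries.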

How the data were processed

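RNA-seq values of 15 OCI-AML5 libraries came as 2 tables, 9 drug libraries and 6 shRNA libraries, of 19620 entries each. The headers name no unit. The deposited values were read as FPKM that the authors quantile normalized in each table separately, since Cufflinks 2.0, TopHat2 2.0 and hg19 stand in the submitters' processing notes, the table names carry an abbreviation for it, and fractional values recur between libraries. The gene annotation, strand and RNA selection are not given in the sources used here, so overlapping antisense genes cannot be told apart. With no counts, depth is unknown and no counting interval is given. Left out were 16 pseudoautosomal Y copies.

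Values were analysed as log2(FPKM + 1), which understates changes of low genes. Genes averaging 1 FPKM or more in a fit were tested with limma 3.58.1 in R 4.3.3 (lmFit, eBayes with trend, two-sided), with Benjamini-Hochberg adjustment over all genes of the fit and a threshold of 0.05. The 9 drug libraries shared 1 fit with 3 contrasts, and the 6 shRNA libraries had their own. Counts of list members are read beside the share of all genes called. The series calls its samples biologic triplicates and names no separate cultures, so p-values measure only how these libraries vary, which may be partly technical. Replicate numbers were not used as pairs: deviations of same-numbered libraries correlated between -0.32 and 0.06. Those of ARV-825 replicate 2 and OTX015 replicate 3 correlated at 0.41. With 3 libraries per group, such values cannot settle whether libraries were paired.

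The members, their classes and the gene lists were chosen with earlier results of these data known. Named were the 4 called subunits with the largest change per complex and comparison, up to 5 called assembly factors, paralog groups, the highest and lowest gene per complex, genes called in opposite directions by the drugs, and the 6 largest differences between them; 1 member is counted but not reported here by name. NDUFAF4, ATP5C1 and SDHA were chosen for their promoters after their values were seen, as were further genes that illustrate a count. Promoter sequences are from RefSeq, GRCh38.p14, a build other than that of the tables, and served for letters only.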

Additional observations from a re-analysis of the deposited data

How the results depend on the processing

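Alternatives were no filter, a mean of at least 5 FPKM, pseudocounts of 0.1 and 5, median-ratio rescaling, no mean-variance trend, only the 2 compared groups, a replicate block, and each library left out. Counts of genes that fell with ARV-825 ranged over left-out libraries from 11 to 17. Between ARV-825 and OTX015, rescaling gave 45 higher and 2 lower, and left-out libraries 2 to 6 lower. With RUNX1 shRNA, 2 rose without the trend; left-out libraries gave 1 to 4 higher and 9 to 14 lower. With the replicate block, in a design where no pairing by number is known, 1 rose. The other counts stayed within 1.5 times. Of 132 calls of named genes none changed sign, and 39 were lost under at least 1 alternative; the cause was not tested. Depth is unknown, so no limit from it can be given for genes near 0 FPKM.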
